A study of Mus musculus with 30 samples.

Results

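The nuclear-encoded subunits of the mitochondrial respiratory chain and ATP synthase were described in bulk RNA-seq of whole mouse kidney. The members are the genes whose symbols start with Ndufa, Ndufb, Ndufc, Ndufs, Ndufv, Uqcr, Cox4 to Cox8 or Atp5, plus Sdha, Sdhb, Sdhc and Sdhd. Of 107 rows with such names, 9 pseudogenes and 8 Ndufaf assembly factors were left out, and 90 members of 57133 counted genes remained. They comprise 39 genes of complex I, 4 of complex II, 8 of complex III, 21 of complex IV and 18 of complex V. Atp5o has 2 identifiers among them, and Ndufa4 and its paralog Ndufa4l2 were placed with complex IV.

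The series compared wild-type mice (WT) with transgenic mice (TG) labelled Gsta2-H2BeGFP, and its title concerns Gsta2, a glutathione S-transferase, in male proximal tubule and ischemic injury. Without surgery there were 3 libraries each of WT males, TG males, WT females and TG females. The other 18 libraries came from males: 3 WT and 3 TG after nephrectomy (NX, removal of a kidney), and 6 WT and 6 TG after nephrectomy with ischemia-reperfusion injury (IRI, stopped and restored blood flow), with kidneys collected at 4 hours. Not given in the labels are the animals' age or strain, the promoter of the transgene, the time at which NX kidneys were taken, and whether every library is from its own animal. The p-values therefore reflect the spread among libraries, which may be technical.

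Complexes I to IV pass electrons from NADH and succinate to oxygen. Complexes I, III and IV, but not complex II, pump protons across the inner mitochondrial membrane, and complex V, the ATP synthase, uses the returning protons to make ATP. Most subunits are encoded in the nucleus, whereas core subunits of complexes I, III, IV and V are encoded by mitochondrial DNA. Kidney tubules depend on this pathway to power sodium reabsorption, and the proximal tubule and thick ascending limb are especially rich in mitochondria.

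Total counts ran from 49040915 to 91354407 per library, and the 90 members together held 1.89 to 2.38% of them. Markers of the proximal tubule were present in every group, with a summed level of 9810 to 17900 CPM (counts relative to library size, as scaled by TMM factors). EGFP, the reporter of the transgene, was above 0 in every library labelled TG and at 0 in every library labelled WT except WT IRI replicate 1, at 2.59 CPM. The TG IRI libraries ran from 1.17 to 6.31 CPM, so this WT library lay within their range. It was kept in the WT IRI group as labelled, and its genotype was not tested. Transcripts of brown fat were high in WT NX replicate 0, where Ucp1 was at 639 CPM. Replicates are numbered from 0, because the title of 1 library in each group carries no number. The 2 count tables, no surgery and surgery, were never tested against each other, because table and surgery cannot be told apart. In bulk tissue, fewer cells of a type and less RNA per cell cannot be told apart.

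Levels between genes were compared in RPKM (reads scaled by exon length and library size), as means of the 8 groups. The exon length counts all annotated exons of a gene, from 419 bases in Ndufa1 to 6883 in Ndufab1, for example. Ranks and medians in RPKM therefore depend on the annotation. The members of at least 1 RPKM numbered 84 of 90, with a median of 91.8 RPKM. The highest were the ATP synthase genes Atp5b (catalytic beta subunit) at 809 RPKM and Atp5a1 (alpha subunit) at 779 RPKM. Cox6a1, a regulatory subunit of cytochrome c oxidase, led complex IV at 770 RPKM. The group means of these 3 genes spanned 779 to 875, 755 to 824 and 656 to 810 RPKM, so their order is not resolved beyond the spread between groups. Uqcrfs1, the Rieske iron-sulfur protein, led complex III at 292 RPKM. Sdha, the flavoprotein that oxidises succinate, led complex II at 248 RPKM. Ndufa1, an accessory subunit, led complex I at 241 RPKM. In each of complexes I to IV the span of group means of the leading gene overlapped that of another member, as for Uqcrfs1 (276 to 312 RPKM) and Uqcr10 (267 to 320 RPKM) or Sdha (231 to 273 RPKM) and Sdhd (212 to 264 RPKM). The 4 genes of complex II had a median of 195 RPKM, against 71.9 RPKM for complex I. The 6 members under 1 RPKM were Ndufb4c, Ndufa11b, Cox4i2, Cox7b2, Cox8c and the second Atp5o identifier, and Cox8c, a testis form, had 0 counts in the 30 libraries.

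**Figure D1:**
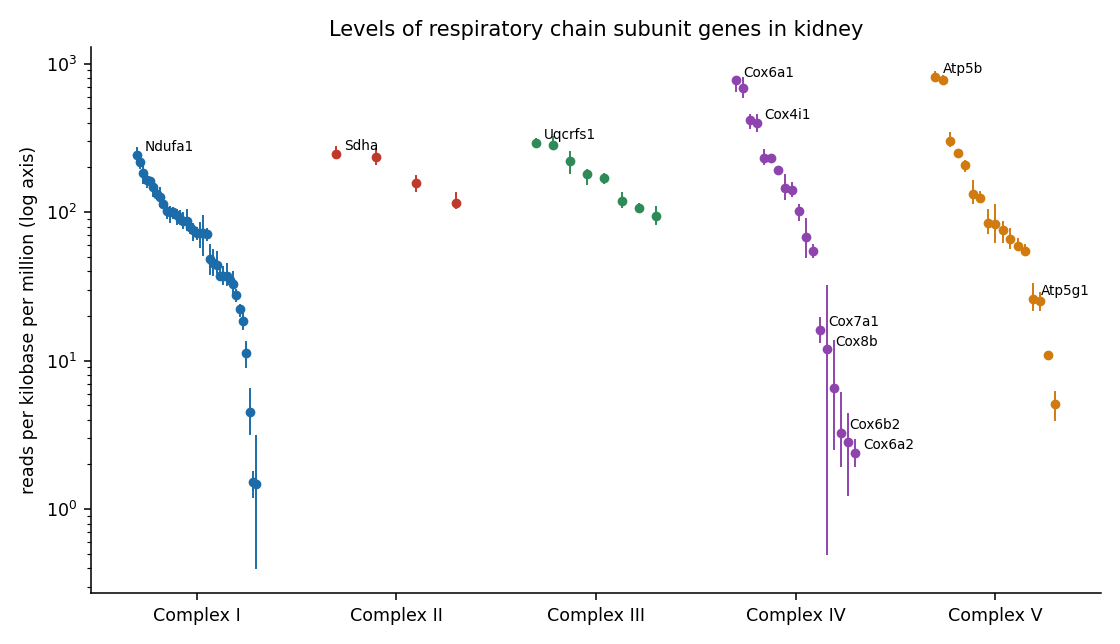
Level of each member of at least 1 RPKM (reads scaled by exon length and library size, log axis), sorted within its complex; points are means of the 8 groups and bars run from the lowest to the highest group mean. Atp5b at 809 RPKM and Cox6a1 at 770 RPKM stand near the top with overlapping bars, and the bar of Cox8b is the longest among the labelled genes, from 0.497 to 31.8 RPKM.

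Several complex IV subunits exist as a widespread form and a form typical of muscle, fat, lung or testis, and the c subunit of ATP synthase has 3 genes for 1 protein. The kidney libraries held mainly the widespread forms. Cox4i1 was at 401 RPKM and Cox4i2, typical of lung, at 0.85 RPKM. Cox6a1 was at 770 RPKM and the muscle form Cox6a2 at 2.4 RPKM. Cox6b1 was at 419 RPKM and Cox6b2, known from testis, at 3.28 RPKM. Cox7a2 was at 230 RPKM and the muscle form Cox7a1 at 16.2 RPKM. Cox8a was at 689 RPKM and Cox8b, a form of muscle and brown fat, at 11.9 RPKM. Ndufa4 was at 232 RPKM and its hypoxia-induced paralog Ndufa4l2 at 2.83 RPKM. Among the c subunit genes, Atp5g3 was at 303, Atp5g2 at 55.1 and Atp5g1 at 25.9 RPKM, and Atp5g3 made up 76.1 to 80.4% of their sum per kilobase in the group means. The order of Atp5g2 and Atp5g1 rests on their exon lengths, 1675 and 4908 bases. In CPM Atp5g1 was the higher of these, with group means of 108 to 161 against 86.2 to 101 CPM.

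The comparison of females with males asks whether subunit genes are sex-biased in uninjured kidneys. In WT, 10 members were higher and 3 lower in females among 86 tested, or 15.1%, beside 21.3% of all genes tested (10.1% higher, 11.3% lower) and 32.9% of the other genes of at least 10 CPM. In TG, 3 members were higher and 10 lower in females, again 15.1%, beside 21.2% of all genes (9.87% higher, 11.3% lower) and 32.2% of the other genes of at least 10 CPM. By complex, 5 of the WT calls were higher and 3 lower in complex I, 3 were higher in complex IV and 2 in complex V. In TG, complex I had 1 higher and 6 lower, complex III 2 lower, complex IV 2 higher and 1 lower and complex V 1 lower. The median change of the members was 0.05 in WT and -0.07 in TG on the log2 scale. All genes tested had medians of 0.03 and 0.02, and all genes of at least 10 CPM had medians of 0 and -0.04. Among members of at least 10 CPM the change stayed between -0.47 and 0.43 in both genotypes. The calls came from edgeR's quasi-likelihood test at a Benjamini-Hochberg adjusted p under 0.05 over all genes tested, as did the calls below.

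Of the 13 members called in WT and the 13 called in TG, 6 were called in both and in the same direction, or 46.2% of each list. The matching share among all genes was not counted, so this overlap has no background beside it. Cox6b2, Cox6c and Ndufa5 were higher in females, and Ndufv3, Ndufv1 and Ndufa10 were lower. Cox6b2 had the largest change. In WT it was at 3.45, 2.9 and 1.93 CPM in males and at 7.58, 6.47 and 6.19 CPM in females. In TG it was at 2.6, 2.92 and 2.92 CPM in males and at 5.29, 6.9 and 5.31 CPM in females. Every female library lay above every male library in both genotypes, and the female level was higher by 1.29 ± 0.2 (SE, n = 3 against 3) on the log2 scale in WT (edgeR adjusted p = 0.000666) and by 1.05 ± 0.2 in TG (adjusted p = 0.00271). It was a minor form, at 1.34 ± 0.155% (SD, n = 3) of the Cox6b1 and Cox6b2 sum per kilobase in WT females and 0.562 ± 0.143% (SD, n = 3) in WT males.

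Cox6c, a small nuclear-encoded subunit of cytochrome c oxidase, had a mean level of 101 RPKM. It was at 319, 311 and 315 CPM in WT males and at 428, 378 and 393 CPM in WT females, groups that did not overlap. The difference was 0.34 ± 0.07 in WT (edgeR adjusted p = 0.00436) and 0.3 ± 0.07 in TG (adjusted p = 0.0109). Ndufa5, an accessory subunit of the peripheral arm of complex I, was at 87.7 to 89 CPM in WT males and at 97.6 to 113 CPM in WT females, a difference of 0.29 ± 0.06 (edgeR adjusted p = 0.00705). In TG it differed by 0.27 ± 0.06 (adjusted p = 0.0102).

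Ndufv1 and Ndufv3 belong to the NADH-oxidising module of complex I, and Ndufa10 is an accessory subunit. Ndufv3 was at 146, 138 and 126 CPM in WT males and at 111, 95.3 and 111 CPM in WT females. It was at 153, 135 and 140 CPM in TG males and at 116, 97.7 and 96.5 CPM in TG females. Its female libraries lay below its male libraries in both genotypes, with a log2 change of -0.37 ± 0.09 in WT (edgeR adjusted p = 0.0109) and -0.47 ± 0.09 in TG (adjusted p = 0.00285). Ndufv1 changed by -0.21 ± 0.06 in WT and -0.28 ± 0.06 in TG. Ndufa10 changed by -0.24 ± 0.07 in WT and -0.34 ± 0.07 in TG. The other calls were made in 1 genotype. In WT females, Atp5g1 was higher by 0.42 ± 0.07, from 125, 121 and 114 CPM in males to 169, 145 and 168 CPM in females (edgeR adjusted p = 0.000793), with Atp5h, a stalk subunit of ATP synthase, higher by 0.32 ± 0.08. Ndufc1 (0.33 ± 0.09), Ndufb7 (0.28 ± 0.08) and Ndufa4l2 (0.49 ± 0.16) were also higher. In TG females, Uqcr10 (-0.24 ± 0.08) and Uqcrq (-0.22 ± 0.06) of complex III, Ndufa4 (-0.24 ± 0.08) and Atp5f1 (-0.21 ± 0.07) were lower. No member of complex II passed edgeR's test in either genotype, with a smallest adjusted p of 0.394 in WT and 0.0898 in TG, and 0 and 1 of the 4 had an unadjusted p under 0.05.

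**Figure D2:**
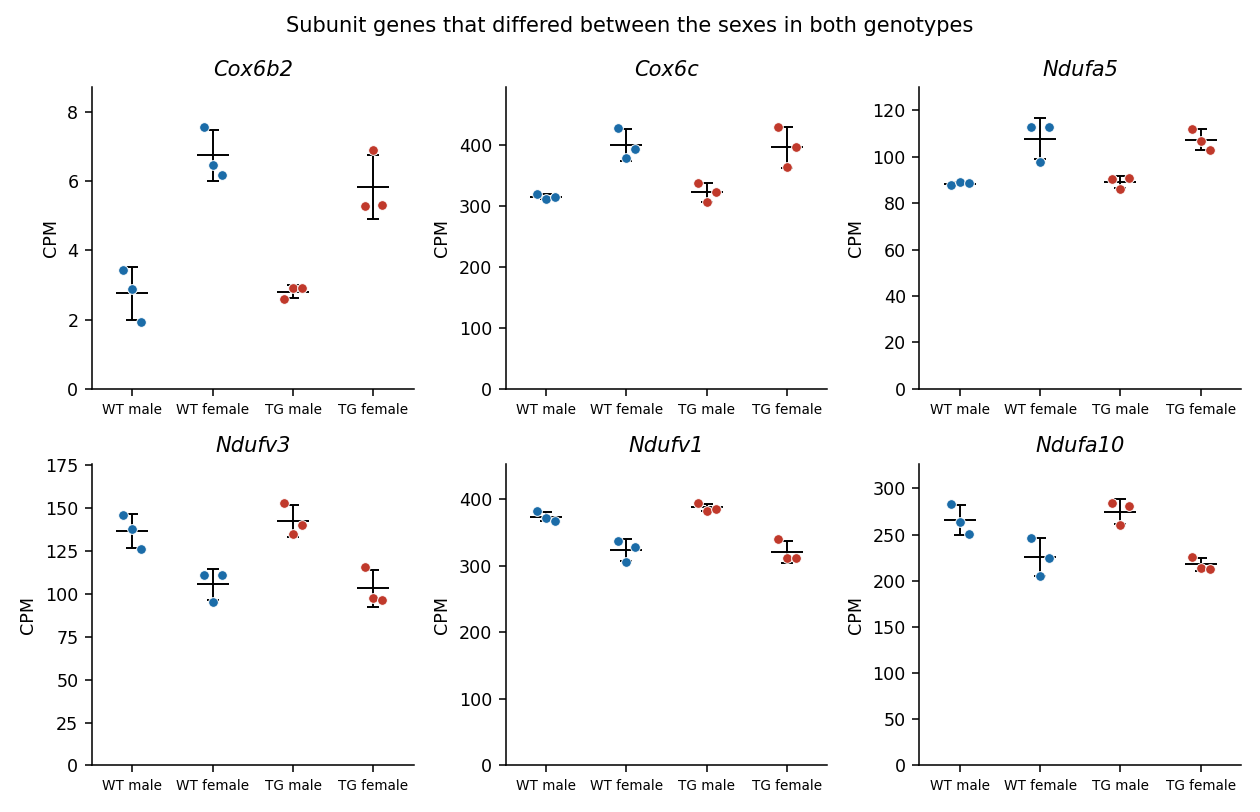
CPM in each no-surgery library for the 6 members called in the same direction in both genotypes; dots are libraries (WT blue, TG red), bars are mean ± SD of 3 libraries and axes start at 0. Cox6b2, Cox6c and Ndufa5 are higher in females and Ndufv3, Ndufv1 and Ndufa10 lower, with no overlap between the sexes within a genotype.

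No member was called in a direct interaction test of sex and genotype (edgeR, 0 of 86 beside 0.00523% of all genes). DESeq2 and limma-voom also called 0 members. At an unadjusted p under 0.05 there were 7 members, beside 1641 of the 19126 genes tested. The interaction estimate was below 0 for 76 of the 86 members, beside 9545 of all genes, and the members' median was -0.11. With each of the libraries left out in turn, 7 to 17 members were called in WT, the fewest without WT male replicate 0, and 6 to 14 in TG, the fewest without TG male replicate 0. Cox6b2, Cox6c and Ndufa5 kept their call in both genotypes under each of these omissions. Markers of nephron segments differed between the sexes as well. The summed level of 6 thick ascending limb markers was 9110 to 10500 CPM in WT females and 5310 to 7720 CPM in WT males. The 8 proximal tubule markers summed to 9810 to 10900 and 9850 to 13100 CPM. In females 4 thick ascending limb markers were called higher and 1 lower in each genotype. Of the proximal tubule markers 1 was higher and 3 lower in WT, and 3 and 3 in TG. Of all genes 21.3% were called in WT and 21.2% in TG. None of these markers was at 0, and their part in the differences was not tested.

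The comparison of IRI with NX asks what subunit genes did 4 hours after injury. Every member that passed the test was lower after injury. In WT, 0 members were higher and 11 lower among 86 tested, or 12.8%, beside 30.9% of all genes tested (16.8% higher, 14.1% lower) and 43% of the other genes of at least 10 CPM. In TG, 0 were higher and 5 lower, or 5.81%, beside 29.4% of all genes (16.4% higher, 13% lower) and 40.7% of the other genes of at least 10 CPM. Estimates below 0 were found for 77 of the 86 members in WT and 60 in TG. Among the 19264 genes tested they were found for 9730 and 9774. The median change of the members was -0.11 and -0.06. That of all genes tested was -0.01 in both, and that of all genes of at least 10 CPM was -0.05 and 0.01. Among members of at least 10 CPM the change ranged from -0.36 to 0.04 in WT and from -0.27 to 0.22 in TG, while the interquartile range of all genes of that level ran from -0.25 to 0.25 and from -0.2 to 0.29. Called members in WT were 6 of 38 tested in complex I, 3 of 4 in complex II, 0 of 8 in complex III (1 at an unadjusted p under 0.05), 1 of 19 in complex IV and 1 of 17 in complex V. In TG they were 1 of 38 in complex I, 1 of 4 in complex II, 1 of 8 in complex III and 2 of 19 in complex IV. Complex V had 0 of 17 in TG (2 at an unadjusted p under 0.05).

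Complex II, succinate dehydrogenase, consists of Sdha, the iron-sulfur protein Sdhb and the membrane anchors Sdhc and Sdhd. On GRCm39 their genes lie on chromosomes 13, 4, 1 and 9. Sdhd was at 337, 327 and 311 CPM in the WT NX libraries, and in the 6 WT IRI libraries at 234 CPM at the lowest, 260 at the median and 282 at the highest. The groups did not overlap, and the log2 change was -0.34 ± 0.07 (edgeR adjusted p = 0.000568). In TG it was at 292, 321 and 283 CPM after NX and at 254, 264 and 273 CPM (lowest, median, highest) after IRI, a change of -0.17 ± 0.07 that did not pass (adjusted p = 0.062).

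Sdhc was at 389, 475 and 452 CPM in the WT NX libraries and at 296, 338 and 388 CPM (lowest, median, highest) in the WT IRI libraries. The lowest NX library was barely above the highest IRI library, and the log2 change was -0.36 ± 0.08 (edgeR adjusted p = 0.00251). In TG it was at 409, 415 and 406 CPM after NX and at 318, 349 and 369 CPM after IRI, without overlap and with a change of -0.23 ± 0.08 (adjusted p = 0.0389). Sdhb went from 345, 364 and 342 CPM to 272, 309 and 339 CPM (lowest, median, highest) in WT, a change of -0.2 ± 0.07 (edgeR adjusted p = 0.0418), and differed by -0.07 ± 0.07 in TG (adjusted p = 0.522). Sdha, the most abundant of the 4, was at 1030, 1190 and 1150 CPM in WT NX and at 943, 1000 and 1110 CPM in WT IRI libraries, which overlapped, and its change of -0.16 ± 0.07 did not pass (adjusted p = 0.108). The injury change of no complex II gene differed between genotypes by the interaction test, with adjusted p of 0.58 to 0.825.

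The promoters of Sdha, Sdhb and Sdhd are shown because the estimates of the 4 complex II genes were below 0 after injury in both genotypes, together with that of Ndufab1, which was called in both genotypes. They are the 250 bases before the RefSeq start on GRCm38.p6, a different build from that of the count tables, and 67 of 89 member symbols had such an entry. Sdha is at chr13:74350241-74350490 (minus strand), Sdhb at chr4:140961021-140961270 (plus strand), Sdhd at chr9:50603850-50604099 (minus strand) and Ndufab1 at chr7:122101849-122102098 (minus strand). Capitals mark 2 motifs searched on both strands, GCGC and TGCGC with any 1 base between them, bound by the nuclear respiratory factor NRF1, and CCGGAAG, the core of sites for ETS family factors such as GABP.
Sdha: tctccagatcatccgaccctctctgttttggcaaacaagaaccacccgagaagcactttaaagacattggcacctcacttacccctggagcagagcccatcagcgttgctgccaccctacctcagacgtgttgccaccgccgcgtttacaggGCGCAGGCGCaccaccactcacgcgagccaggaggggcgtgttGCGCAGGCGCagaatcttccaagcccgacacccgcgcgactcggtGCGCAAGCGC
Sdhb: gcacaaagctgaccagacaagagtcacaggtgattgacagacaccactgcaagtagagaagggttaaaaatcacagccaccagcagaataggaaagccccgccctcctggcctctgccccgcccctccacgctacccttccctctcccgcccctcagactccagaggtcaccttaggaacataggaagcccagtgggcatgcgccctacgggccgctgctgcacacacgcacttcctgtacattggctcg
Sdhd: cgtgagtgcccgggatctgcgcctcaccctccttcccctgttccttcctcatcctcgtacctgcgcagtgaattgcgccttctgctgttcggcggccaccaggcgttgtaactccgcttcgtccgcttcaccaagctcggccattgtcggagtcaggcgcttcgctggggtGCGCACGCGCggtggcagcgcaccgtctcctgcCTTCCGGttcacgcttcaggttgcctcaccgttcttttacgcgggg
Ndufab1: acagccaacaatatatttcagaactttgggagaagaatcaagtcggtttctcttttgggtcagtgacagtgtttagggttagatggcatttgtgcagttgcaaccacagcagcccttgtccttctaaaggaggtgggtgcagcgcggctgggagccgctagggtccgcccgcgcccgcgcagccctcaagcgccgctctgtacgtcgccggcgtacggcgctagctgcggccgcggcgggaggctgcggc

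The NRF1 letters occurred 3 times in the Sdha window and 1 time in the Sdhd window, which also held the ETS letters 1 time, and neither motif was found in the windows of Sdhb and Ndufab1. The marked matches do not overlap each other. Among the 67 member promoters, 17.9% held the NRF1 letters and 16.4% the ETS letters. In promoters of the other genes of at least 10 CPM the shares were 8.95% and 14.4%, and in all 27025 listed promoters they were 3.86% and 7.05%. A match is a description of letters in the window, and the deposited data do not bear on binding there.

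Ndufab1, the mitochondrial acyl carrier protein and a complex I subunit, was at 84.9, 70.7 and 72.4 CPM in WT NX libraries and at 61.7, 65.5 and 66.8 CPM (lowest, median, highest) in WT IRI libraries. It was at 80.9, 74.3 and 70.9 CPM after NX and at 59.8, 62.4 and 65.5 CPM after IRI in TG. Its NX and IRI libraries did not overlap in either genotype, and it changed by -0.25 ± 0.07 in both (edgeR adjusted p = 0.011 in WT and 0.0102 in TG). Ndufab1 and Sdhc were the 2 members called in both genotypes, or 18.2% of the WT list and 40% of the TG list. The matching shares among all genes were not counted. The other complex I members with the largest falls in WT were Ndufb8 (-0.31 ± 0.1, adjusted p = 0.0297), Ndufb4 (-0.28 ± 0.08, adjusted p = 0.00992) and Ndufa11 (-0.26 ± 0.1, adjusted p = 0.0441), accessory subunits of the membrane arm. Ndufb8 shares 14.9% of its exon bases with the overlapping gene Gm20538, so reads of these genes may not be told apart.

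Outside complexes I and II, Ndufa4 changed by -0.25 ± 0.07 (edgeR adjusted p = 0.0112) and Atp5g3 by -0.21 ± 0.08 (adjusted p = 0.0421) in WT. In TG, Uqcrh, the hinge protein of complex III, was at 258, 222 and 213 CPM after NX and at 176, 191 and 205 CPM (lowest, median, highest) after IRI, without overlap, a change of -0.27 ± 0.09 (edgeR adjusted p = 0.0336). The largest falls in TG were in forms of low abundance. Cox6b2 was at 2.22, 6.28 and 2.89 CPM after NX and at 1.44, 2.22 and 2.83 CPM after IRI, and its change of -0.8 ± 0.28 (edgeR adjusted p = 0.0349) became -0.23 (adjusted p = 0.601) without TG NX replicate 1. Ndufa4l2 was at 2.12, 2.82 and 1.87 CPM after NX and at 1.11, 1.32 and 1.78 CPM after IRI, and changed by -0.72 ± 0.22 (edgeR adjusted p = 0.019), or by -0.53 (adjusted p = 0.148) without TG NX replicate 1. In WT it changed by -0.32 ± 0.22 and did not pass (adjusted p = 0.305).

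**Figure D3:**
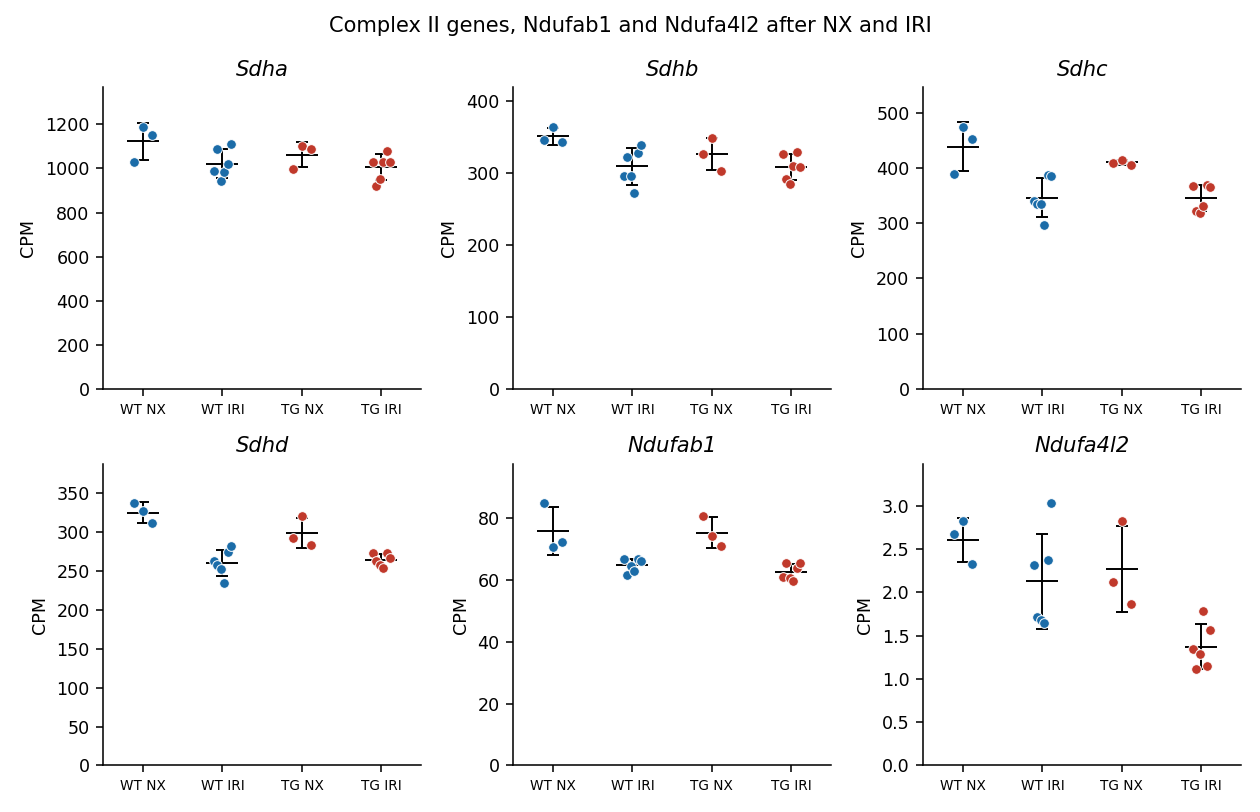
CPM in each NX and IRI library for the 4 complex II genes, Ndufab1 and Ndufa4l2; dots are libraries (WT blue, TG red), bars are mean ± SD of 3 NX or 6 IRI libraries and axes start at 0. Sdhc and Ndufab1 are lower after IRI without overlap in both genotypes, Sdha overlaps in both, and the highest TG NX library of Ndufa4l2 is at 2.82 CPM.

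Sdhc and Sdhd kept their call in WT when each of the 9 libraries was left out in turn, and none of the 5 TG calls did. The number of members called in WT ranged from 3 without WT NX replicate 0, which holds the brown fat transcripts, to 18 without WT IRI replicate 5, and in TG from 1 without TG NX replicate 1 to 7 without TG NX replicate 2. Without both WT NX replicate 0 and WT IRI replicate 1, which holds EGFP, 5 members were called in WT, and Sdhc changed by -0.42 (edgeR adjusted p = 0.00299) and Sdhd by -0.3 (adjusted p = 0.00879). The counts also moved with the scaling: with upper-quartile factors, which shifted the median of all genes to -0.1 in WT and -0.14 in TG, 34 and 35 members were lower and 0 higher. These were 39.5 and 40.7% of the members tested, beside 20.4 and 22.2% of all genes lower with the same factors. Leukocyte markers summed to 34.1 to 130 CPM in WT IRI and 16.4 to 30.1 CPM in WT NX libraries, erythroid markers to 108 to 1310 and 35.3 to 119 CPM, and proximal tubule markers to 10500 to 13100 and 11800 to 17900 CPM. No marker of these lists was at 0 in either group, and their part in the falls was not tested. In the interaction test of genotype and injury 0 of 86 members were called, beside 0% of all genes (edgeR). DESeq2 and limma-voom also called 0 members. At an unadjusted p under 0.05 there was 1 member, Cox8b, beside 1848 of the 19264 genes tested. The interaction estimate was above 0 for 61 of the 86 members, beside 9637 of all genes.

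**Figure D4:**
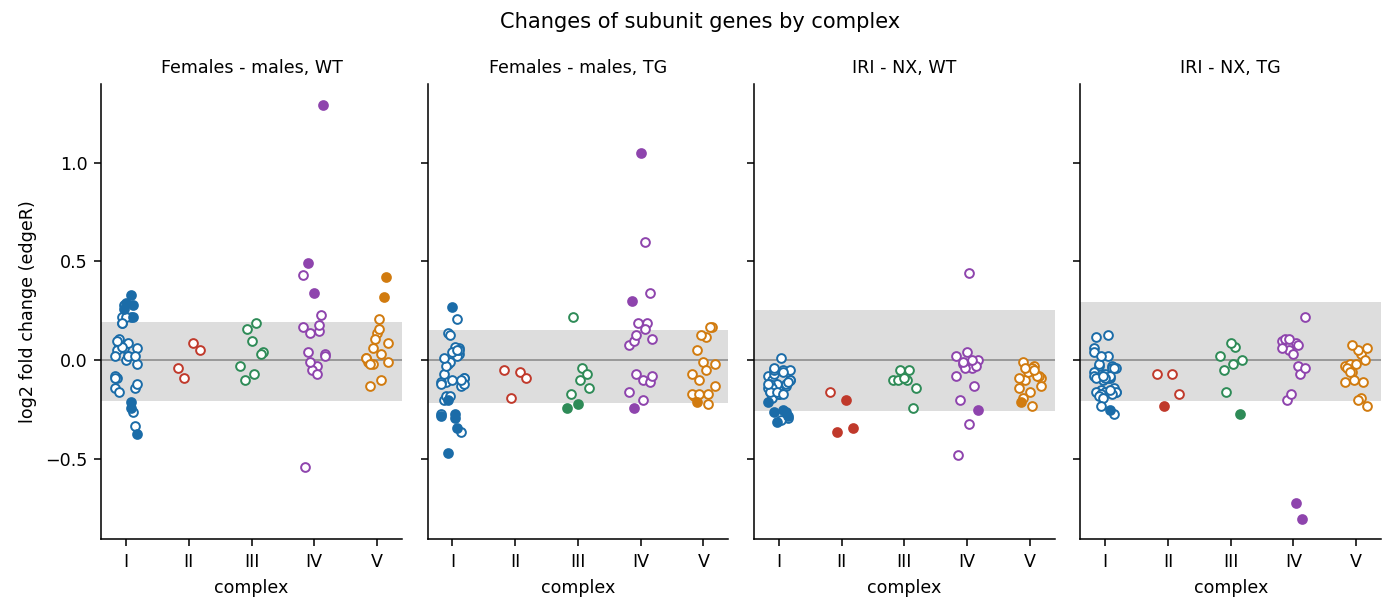
Log2 fold changes from edgeR by complex in 4 comparisons, for members of at least 1 CPM in the higher group except Cox8b; filled points passed the test, open points did not, and the grey band is the interquartile range of all genes of at least 10 CPM. Most points lie within 0.5 of 0, and Cox6b2 stands apart in females, at 1.29 in WT and 1.05 in TG.

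The comparisons of TG with WT ask whether the transgene altered subunit genes. No member passed edgeR's test in any of them. Without surgery 0 of 86 members were called in males, beside 0.00523% of all genes, and 0 of 86 in females, beside 0.0418%. After NX 0 of 85 were called, beside 0.0117%, and after IRI 0 of 84, beside 0.0701%. At an unadjusted p under 0.05 there were 5, 2, 7 and 2 members in these comparisons. Among all genes tested there were 998 and 1738 of 19126 without surgery, 1157 of 17100 after NX and 2413 of 17111 after IRI. DESeq2 and limma-voom called 0 members in each. In no-surgery males 68 of 86 members had estimates above 0, beside 9650 of all genes. Below 0 were 74 of 86 members in no-surgery females, 68 of 85 after NX and 64 of 84 after IRI. Among all genes 9719, 8562 and 8942 were below 0. The median change of the members was 0.04 in no-surgery males, -0.07 in no-surgery females, -0.11 after NX and -0.03 after IRI. All genes tested had medians of 0, 0, 0 and -0.01, and all genes of at least 10 CPM 0.01, -0.02, -0.02 and 0.02.

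The members with the smallest p in no-surgery males were Uqcrq, at 206, 198 and 193 CPM in TG and 169, 178 and 166 CPM in WT, and Cox5a. These groups did not overlap, but the differences of 0.22 ± 0.06 (95% interval 0.09 to 0.35) and 0.26 ± 0.09 (0.07 to 0.44) had edgeR adjusted p of 0.916. In females they were Ndufb7 (-0.17 ± 0.08) and Atp5g1 (-0.15 ± 0.07), with adjusted p of 0.53 and 0.535. After NX they were Cox6a1 (-0.3 ± 0.1) and Cox8b (-5.92 ± 1.99), both with an adjusted p of 0.73. After IRI they were Cox7a2l and Ndufa4l2 (-0.63 ± 0.2, edgeR adjusted p = 0.228).

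Cox7a2l, a relative of Cox7a2 that joins complexes III and IV into supercomplexes, varied widely within groups. In the WT IRI libraries it was at 65.6 CPM at the lowest, 108 at the median and 119 at the highest, and in the TG IRI libraries at 64.9, 68.4 and 103 CPM. The lowest WT library was replicate 1, which holds EGFP, and the highest TG library was replicate 0. The groups overlapped, and the difference was -0.47 ± 0.14 (95% interval -0.78 to -0.16, edgeR adjusted p = 0.208). After NX it was at 122, 83.8 and 103 CPM in WT and 108, 75.2 and 66.2 CPM in TG. Without surgery it was at 117, 91.5 and 86.4 CPM in WT males, 125, 91.7 and 84.6 in TG males, 150, 147 and 99.1 in WT females and 98.2, 139 and 99 in TG females.

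Cox8b, the muscle and brown fat form of subunit VIII, had the widest spread of the isoforms. In WT NX it was at 34.1 CPM in replicate 0 and at 0.0607 and 0.225 CPM in the others, and in TG NX at 0.42, 0.0641 and 0.0535 CPM. Replicate 0 alone was high, and the same library had Ucp1, the uncoupling protein of brown fat, at 639 CPM and Adipoq, an adipocyte hormone, at 35 CPM, where WT NX replicates 1 and 2 had 0 of both. Without surgery Cox8b ran from 0.0384 CPM in WT male replicate 0, where Ucp1 was at 0.154 CPM, to 14.2 CPM in TG male replicate 1, where Ucp1 was at 55.9 CPM. Across libraries the Pearson correlation of Cox8b with Ucp1 on log2(CPM + 0.1) was 0.88 over 12 no-surgery and 0.96 over 18 NX and IRI libraries, with Spearman coefficients of 0.85 and 0.66, as a description of values that share a library. The change after injury in WT, -4.53 ± 1.71, missed the threshold (edgeR adjusted p = 0.0502). Cox7a1 was also highest in WT NX replicate 0, at 19.3 CPM against 6.34 and 5.58 CPM. Cox8a, the widespread form, was at 384 CPM in that library and at 443 and 404 CPM in the others. Of 12 striated muscle markers, 4 (Ckm, Tnnt3, Myh2 and Myh1) were at 0 in the WT NX libraries and the others were not. The 12 together summed to 1.37 to 3.18 CPM there, and the part of fat or muscle in these values was not tested.

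**Figure D5:**
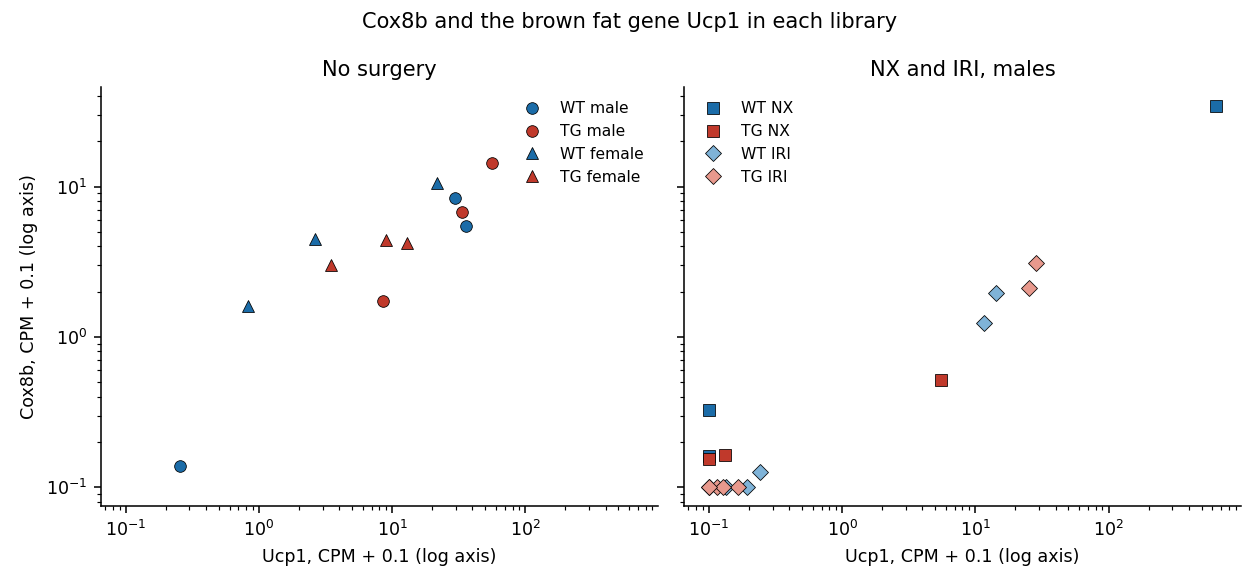
CPM + 0.1 of Cox8b against that of Ucp1 (log axes) in the 12 no-surgery libraries (left) and the 18 NX and IRI libraries (right); each point is a library. In the right panel WT NX replicate 0 lies at the top right, with Cox8b at 34.1 and Ucp1 at 639 CPM, and libraries low in Ucp1 are low in Cox8b. The left panel is looser: WT female replicate 0 had Ucp1 at 2.52 and Cox8b at 4.36 CPM, and TG male replicate 0 had 8.38 and 1.64 CPM.

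Ndufa4l2 was at 3.24 ± 0.545 and 3.79 ± 0.151 CPM (SD, n = 3) in WT and TG males and 4.54 ± 0.532 and 4.81 ± 0.455 CPM in WT and TG females without surgery. The genes most like it across the 18 NX and IRI libraries, among 19263 compared, were Cyp20a1, Flywch1 and Igfbp5, with Pearson coefficients of log2 CPM of 0.93, 0.91 and 0.9. For Cox4i2, at 0.373 to 1.23 CPM in the group means, they were Ms4a4b, Spib and Pcyt1b, at 0.77, 0.74 and 0.74. These coefficients describe libraries that share depth and treatment.

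Genes that work with the subunits were counted in the same fits, in which 30.9% of all genes were called after injury in WT (14.1% lower) and 29.4% in TG (13% lower). Of 44 assembly factors, which build the complexes, 0 were higher and 16 lower after injury in WT, and 0 and 15 in TG, or 36.4 and 34.1%, with median changes of -0.21 and -0.16. Taco1, a translational activator of mt-Co1, changed by -0.59 ± 0.09 in WT (edgeR adjusted p = 5.11e-05) and -0.54 ± 0.09 in TG (adjusted p = 0.000136). Of 13 subunits encoded by mitochondrial DNA, 0 were called after injury in either genotype by edgeR, and 0 had an unadjusted p under 0.05, with medians of 0.04 and 0.12. In females 0 were higher and 6 lower in each genotype, or 46.2%, beside 11.3% of all genes lower in each, with medians of -0.4 and -0.41. The gene mt-Nd5 went from 12000 ± 1710 to 6620 ± 639 CPM (SD, n = 3) in WT, a change of -0.85 ± 0.13 (edgeR adjusted p = 0.000627). Of 78 mitochondrial ribosomal protein genes, 2 were higher and 18 lower after injury in WT, and 1 and 13 in TG. The shares called in either direction, 25.6 and 17.9%, were below the 30.9 and 29.4% of all genes. The shares lower, 23.1 and 16.7%, were above the 14.1 and 13% of all genes.

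Among 14 regulators of mitochondrial gene expression, 3 were higher and 0 lower after injury in WT, and 3 and 3 in TG, or 21.4 and 42.9% beside 30.9 and 29.4% of all genes. Gabpb1, a subunit of GABP, rose from 9.85 ± 0.446 (SD, n = 3) to 17.4 ± 1.92 CPM (n = 6) in WT (0.8 ± 0.12, edgeR adjusted p = 4.4e-05). Pprc1, a coactivator related to PGC-1, rose by 1.08 ± 0.22 in WT (edgeR adjusted p = 0.000896) and 1.67 ± 0.22 in TG (adjusted p = 1.35e-05). Of 13 enzymes of the TCA cycle, 0 were higher and 4 lower after injury in WT, or 30.8%. Of all genes in WT, 30.9% were called in either direction and 14.1% were lower. In TG 0 of these enzymes were called by edgeR, and 2 had an unadjusted p under 0.05. Of 17 electron carrier and entry genes 5 and 4 were lower and 0 higher, or 29.4 and 23.5%. Of 12 hypoxia-responsive genes, 6 were higher and 3 lower in WT, and 3 and 0 in TG, or 75 and 25%. Slc2a1, a glucose transporter, was higher by 1.52 ± 0.21 in WT (edgeR adjusted p = 1.96e-05).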

How the data were processed

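Poly-A RNA of whole kidney was sequenced in paired reads by the provider named in the labels. The authors deposited raw counts, whole numbers for each gene, made with fastp 0.23.2, STAR 2.7.0 and featureCounts 2.0.3 per the submitters' processing notes, on GRCm39 with Ensembl release 112 and an added EGFP entry per the file headers. Whether reads were counted by strand or as pairs is not given in the sources used here. Symbols were matched by Ensembl identifier to GENCODE M21 (90.8% of 57133), so older Atp5 names apply. Exons of 58 members overlap no other gene, and in 1, the second Atp5o identifier, over 50% of exon bases do.

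Groups came from the labels. The main test was glmQLFTest of edgeR 4.0.16 (R 4.3.3), a quasi-likelihood test that is two-sided, with TMM factors, filterByExpr and Benjamini-Hochberg adjusted p under 0.05. No-surgery comparisons used a fit of 12 libraries, TG against WT used the 6 NX or 12 IRI libraries, and IRI against NX used 18. CPM are counts scaled by TMM library sizes, and n counts libraries. No 2 libraries were copies (435 pairs, chi-square per degree of freedom at least 15.4). The tests between groups were also run on counts simulated with known changes and the spread of these data, and the outcome is not given here. Intervals are at 95%.

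Members and lists were chosen with earlier results of these data known. Members named are, per complex and comparison, the 3 largest rises and falls that passed with at least 1 CPM, the 2 smallest p where none passed, the isoforms, the c subunit and complex II genes, the highest per complex and up to 2 called genes per other list; Ndufb4c, Ndufa11b, Cox7b2 and the spread of Cox7a2l were singled out after their values were seen. A gene that the rule names is not reported here. As alternatives, DESeq2 1.42.0 and limma-voom 3.58.1 were run, as were fits with upper-quartile factors, with relative log expression (RLE) factors and without a count filter. Factors without mitochondrial DNA genes, halved counts, a replicate block, other sets of libraries and each library left out were also tried. Omitting 2 libraries together was added after seeing the data.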

Additional observations from a re-analysis of the deposited data

Results flagged for a closer look

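Within the WT and TG IRI groups of 6, a library was looked for whose distance to its neighbour took up most of the group's range (Dixon's criterion at 95%). Of 60 such groups over 31 named members, 5 had one, where chance gives about 1 in 20. Cox4i1 was at 759 CPM in WT IRI replicate 5 and at 567 to 613 CPM in the other WT IRI libraries. Ndufa1 was at 118 CPM in the same library and at 93.6 to 101 CPM in the others. That library also had the highest share of counts from mitochondrial DNA, 16.3%, and its part in these values was not tested. Cox6a2 was at 3.86 CPM in WT IRI replicate 4 and at 1.44 to 1.93 CPM in the others. Uqcrfs1 was at 357 CPM in WT IRI replicate 3 and at 383 to 398 CPM in the others. Cox7a2l was at 103 CPM in TG IRI replicate 0 and at 64.9 to 69.5 CPM in the others.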

How the results depend on the processing

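The counts of 0 in TG against WT and in both interactions stayed at 0 under each alternative run, except that without a count filter 1 member was lower after NX. In females against males 7 to 17 members were called in WT and 6 to 14 in TG when each library was left out in turn. With upper-quartile factors 3 members were higher and 6 lower in TG females. In IRI against NX, WT, the count of 11 became 7 with RLE factors, 34 with upper-quartile factors, 4 without a count filter, 7 with factors computed without mitochondrial DNA genes, 5 without both libraries that stand apart, and 3 to 18 when each library was left out. In IRI against NX, TG, the count of 5 became 35 with upper-quartile factors, 8 with DESeq2, 8 with halved counts, and 1 to 7 when each library was left out. The upper-quartile factors moved the median of all genes to -0.1 in WT and -0.14 in TG; the cause of the other shifts was not tested. The correlations of deviations between libraries of the same replicate number do not settle whether these numbers pair libraries. No comparison had every pair over 0.1, and the highest single value was 0.27, in TG against WT, no-surgery males. In females against males, WT, and in both comparisons of IRI with NX all 3 pairs correlated best with their own number. The main fits did not pair libraries. With a replicate block 20 members were called in TG females against males, 6 in IRI against NX, WT, and 2 in IRI against NX, TG, and the other counts stayed within 1.5 times. Directions were followed under these settings for members called with at least 1 CPM and, where none passed, for the 2 with the smallest p. None of them reversed, where a change of sign without a call in either fit was not counted. The count filter left 84 to 86 of the 90 members to test, so the lowest were not compared at this depth.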
